A study of Mus musculus with 10 samples.

Results

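The ATF4 amino acid response is a set of genes that mammalian cells use to restore amino acid supply, and 40 of them were followed here in mouse TH2 cells from vitamin D-deficient and control mice. The 40 symbols were matched to Ensembl gene IDs through GENCODE mouse names of the GRCm38 build. All 40 were found among the 49671 genes of the count table, each with a single ID, and all 40 passed the filter on low counts that left 13699 genes. The list was chosen by known membership of the ATF4 response and with the diet fold changes of these same libraries already in view. The diet difference is therefore given below as a description of the members, without p-values for them.

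TH2 cells are helper T cells of the type 2 immune response. RNA came from 7 cultures of vitamin D-deficient mice and 3 cultures of control mice, taken on day 5 of polarisation from naive CD4+ T cells. All mice were C57BL/6 with the genotype label WT. The deficient animals were second-generation offspring raised free of ultraviolet light on chow without vitamin D, and the chow of the controls held 400 IU of vitamin D3 per kg. The contrast is called diet below. If controls also differed in light or generation, these cannot be told apart from chow. Batch 1 held 5 deficient libraries (1 to 5) and 2 controls (1 and 2), and batch 2 held 2 deficient libraries (6 and 7) and 1 control (3). The labels do not say whether libraries came from separate mice, so the spread that the tests rest on may be technical.

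ATF4 is a transcription factor whose own messenger RNA is translated better when the initiation factor eIF2 is phosphorylated, as happens when the kinase GCN2 senses uncharged transfer RNA. With C/EBP partners it binds composite response elements and raises genes for amino acid uptake, amino acid synthesis and transfer RNA charging. Its targets also include TRIB3 and GADD34, which dampen or end the response. Activated T cells are known to need this supply line, since they import and make large amounts of amino acids as they grow.

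Library totals ran from 7029207 to 13433276 counts in deficient cells and from 5800698 to 6462146 counts in controls (exact permutation test over 120 splits, two-sided, p = 0.00833, the lowest value possible). The mitochondrial share of counts was 5.42 to 9.92% in deficient cells and 7.02 to 8.23% in controls. All 8 fixed T and TH2 markers were detected, and they summed to 829 to 1011 counts per 1000000 library counts (CPM) in deficient cells, against 1259 to 1327 CPM in controls (2 of 8 higher and 5 lower in edgeR's test, described below). Cd4 was the largest part of this sum, at 298 to 396 CPM in deficient cells and 707 to 734 CPM in controls. Cd3e, Cd3g, Gata3 and Ccr4 were also lower. The 2 higher were cytokine genes of TH2 cells. Il13 had 168 to 255 CPM in deficient cells and 61.4 to 92.1 CPM in controls. Il5 had a log2 fold change of 0.84, with overlapping groups. Il4, at a log2 fold change of 0.05, was neither higher nor lower. The 10 markers of CD8 T cells and cytotoxic lymphocytes summed to 687 to 1958 CPM in deficient cells, against 99.4 to 202 CPM in controls (8 of 10 higher, 0 lower), and Cd8a was at 0 in control library 1. The 8 B cell markers summed to 56.3 to 332 CPM in deficient cells, against 12.8 to 105 CPM in controls (2 of 8 higher, 0 lower). Deficient libraries 5 to 7 stood apart from deficient libraries 1 to 4, with cytotoxic sums of 1491 to 1958 CPM against 687 to 1040 CPM, and B cell sums of 295 to 332 CPM against 56.3 to 84.2 CPM. The 6 dendritic cell markers summed to 12.1 to 20.1 CPM in deficient cells and 5.61 to 10.7 CPM in controls (3 tested, of which Zbtb46 was higher and 0 lower). The 6 macrophage markers summed to 4.69 to 6.65 CPM in deficient cells and 13.9 to 14.9 CPM in controls (2 tested, of which Adgre1 was higher and Cd68 lower). Most of the macrophage sum was Cd68, at 3.27 to 5.10 CPM in deficient cells and 13.2 to 14.7 CPM in controls. Clec9a and Siglech were at 0 in every deficient library. Gzmb was the largest part of the cytotoxic sum, at 457 to 1234 CPM in deficient cells and 52.9 to 110 CPM in controls. Whether these transcripts came from other cells or from the TH2 cells themselves was not tested. What part any other cells have in the differences below was not tested either. In bulk samples, fewer cells of a type and less RNA per cell cannot be told apart.

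Promoter windows of RefSeq (GRCm38.p6, 250 bases before to 50 after each annotated start) were searched on both strands for TGATGNAA, the core of the C/EBP-ATF response element. The table held windows for 33 members, and Aldh1l2, Slc7a5, Slc1a5, Nars, Wars, Cars and Lars were not matched. Of the 33 members, 14 held the motif (42.4%), against 3.97% of all 32851 windows and 4.51% of all 27025 genes. The list was chosen by known membership of the ATF4 response, for which this element can itself be evidence. Nothing is therefore read from the difference in these shares. By role, it was found in 5 of 7 tRNA synthetases (Aars, Gars, Iars, Yars, Tars), 2 of 5 transporters (Slc7a11, Slc1a4), 3 of 9 synthesis enzymes (Asns, Pck2, Pycr1), 3 of 6 stress effectors (Trib3, Chac1, Vldlr) and 1 of 6 transcription factors (Nupr1). Slc7a11 held 2 matches in opposite orientation, from -66 to -59 and from -47 to -40 relative to the start. The sequences below show how the element sits in members that differed widely between the diets (Nupr1, Trib3, Pycr1, Slc7a11), in those that differed little (Chac1, Gars) and in Pck2, which was lower in deficient cells. Each reads 5′ to 3′ on the strand of its gene with the motif in capitals, which in Nupr1, Trib3, Chac1, Pck2, Gars and the second match of Slc7a11 lies on the opposite strand and so appears as its reverse complement. They lie at chr7:126625563-126625590 (minus strand, Nupr1), chr2:152344029-152344056 (minus, Trib3), chr2:119351009-119351096 (plus, Chac1), chr6:7693215-7693242 (minus, Asns), chr14:55540123-55540210 (plus, Pck2), chr11:120643804-120643891 (minus, Pycr1), chr3:50443615-50443719 (minus, Slc7a11) and chr6:55037931-55038000 (plus, Gars). The sites of Nupr1, Trib3 and Asns lie in an annotated exon of the gene and are given with 10 bases on each side.
Nupr1: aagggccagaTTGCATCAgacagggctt
Trib3: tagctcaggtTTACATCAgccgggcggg
Chac1: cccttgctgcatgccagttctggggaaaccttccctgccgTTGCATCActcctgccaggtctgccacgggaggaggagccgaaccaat
Asns: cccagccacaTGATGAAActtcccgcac
Pck2: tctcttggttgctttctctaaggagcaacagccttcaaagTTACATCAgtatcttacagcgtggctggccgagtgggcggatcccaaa
Pycr1: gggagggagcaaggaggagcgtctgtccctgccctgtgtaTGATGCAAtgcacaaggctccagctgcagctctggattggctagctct
Slc7a11: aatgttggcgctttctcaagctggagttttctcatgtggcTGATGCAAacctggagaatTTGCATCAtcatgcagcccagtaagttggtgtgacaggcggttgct
Gars: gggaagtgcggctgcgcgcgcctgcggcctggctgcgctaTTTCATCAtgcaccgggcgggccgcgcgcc

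**Figure D1:**
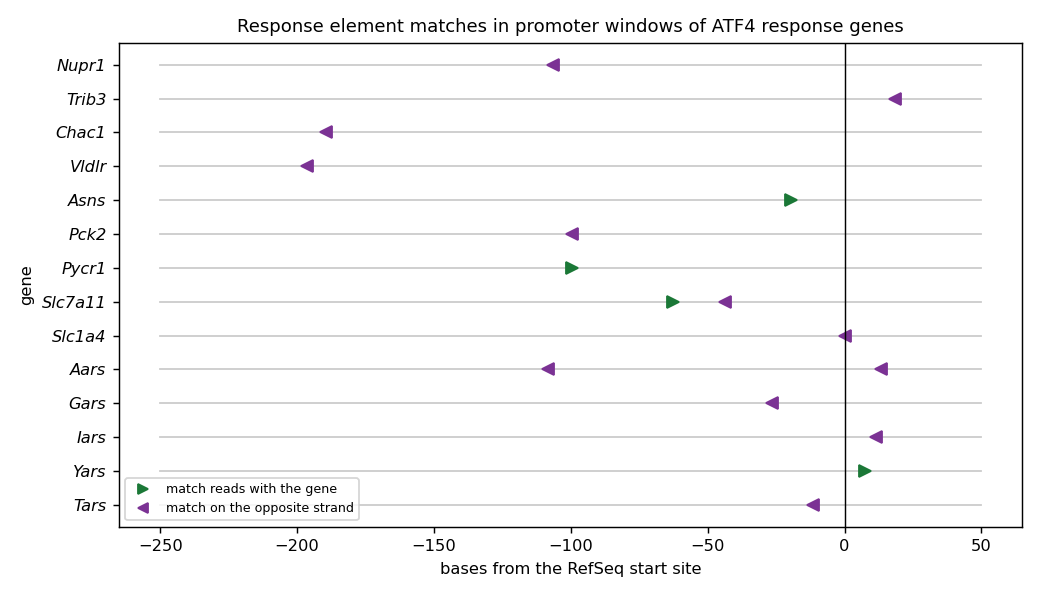
Position of each TGATGNAA match in the promoter windows of the 14 members that hold the motif, in bases from the RefSeq start (line at 0); arrows give the strand. Matches run from 200 bases before the start (Vldlr, in the second of its 2 windows) to 22 bases after it (Trib3).

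A match is a description of letters and not of binding. Among tested genes that are no members and have a window in the table, 253 held the motif, of which 30.4% were higher and 28.5% lower in deficient cells, with a median log2 fold change of 0.06. The 9392 whose windows held no match were higher in 31.4% and lower in 29.6% of cases, with a median of 0.03.

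The first question is how the members differed between the diets. Together they took 10828 to 11806 CPM of each deficient library, against 7410 to 7975 CPM of each control library, and the groups did not overlap. The difference was unequal: the cystine transporter gene Slc7a11, the folate enzyme gene Aldh1l2, Nupr1, Wars and Vldlr were 4.46 to 7.69 times as high in deficient cells on mean CPM, while Psat1, Mthfd2, Slc7a5 and Slc38a2 differed by 1.03 to 1.15 times and their libraries overlapped. In edgeR's quasi-likelihood test with terms for diet and batch, at a Benjamini-Hochberg adjusted p below 0.05 over all genes tested, 30 of 40 members were higher and 3 lower in deficient cells. Over all 13699 genes, 29.4% were higher and 28.6% lower, together 58.0%. Since the list was made with this contrast in view, nothing is read from that comparison. The members' median log2 fold change (deficient minus control) was 0.45, against 0.02 over all genes tested. Every deficient library lay above every control for 31 members and below for 3, against 29.4% and 21.4% of all genes (34 of 40 members without overlap, against 50.8% of all genes). Within batch 1, 27 members were higher and 3 lower, and without deficient libraries 5 to 7, 29 and 3. Within batch 2 the counts were 26 and 3, but this fit has 2 deficient libraries and 1 control, which is assumed to vary like them. These counts use the same contrast and are likewise a description.

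**Figure D2:**
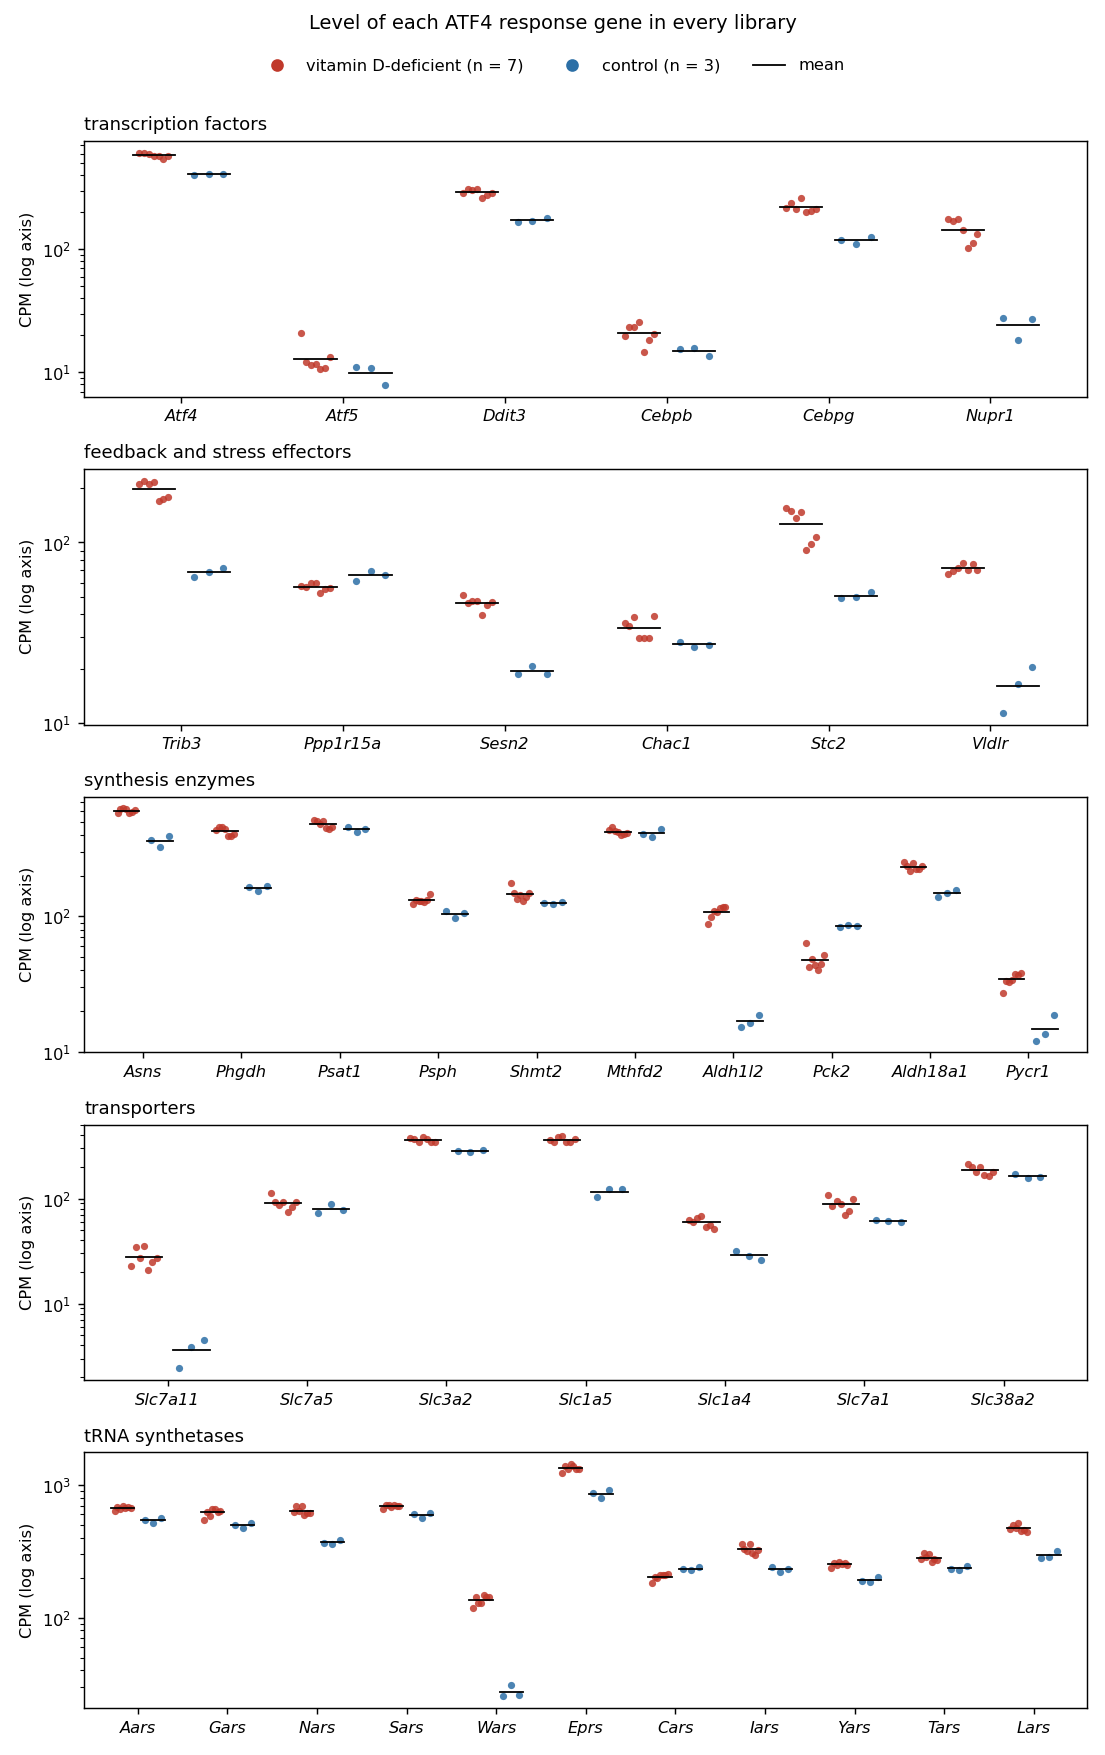
CPM of each member in every library on a log axis, by role, with deficient libraries (n = 7) left of control libraries (n = 3) and a line at each mean. Slc7a11, Nupr1, Aldh1l2, Vldlr and Wars show the widest gaps, and the groups overlap for Atf5, Cebpb, Psat1, Mthfd2, Slc7a5 and Slc38a2.

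Of the 6 transcription factors, 5 were higher and 0 lower, with a median log2 fold change of 0.55. Atf4 itself (ENSMUSG00000042406, chromosome 15, 80255184 to 80257541) had 542, 576 and 609 CPM as the lowest, median and highest of the 7 deficient libraries, against 400, 412 and 407 CPM in the controls. Its deficient libraries lay above all controls. The ratio of its mean CPM was 1.43, and its log2 fold change 0.43 (SE 0.053). Log2 fold changes here come from the edgeR fit, which scales libraries by TMM and includes batch, and so differ from the log2 of CPM ratios. These are transcript levels, and the translation of Atf4 was not measured. Ddit3, which encodes the stress factor CHOP, had 260, 288 and 311 CPM in deficient cells, against 168, 169 and 179 CPM in controls (log2 0.67, SE 0.065). Cebpg encodes a small C/EBP protein that pairs with ATF4. It read 200, 211 and 259 CPM in deficient cells and 120, 111 and 126 CPM in controls (log2 0.80, SE 0.079), again without overlap.

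Nupr1 encodes a small chromatin protein induced by stress and was the most different of these 6 genes. Its level was 102, 143 and 176 CPM in deficient cells, against 27.6, 18.3 and 27.2 CPM in controls, with a log2 fold change of 2.46 (SE 0.256). Deficient libraries 5, 6 and 7 gave 102, 113 and 133 CPM and were the lowest of the 7. Cebpb, a C/EBP factor of the acute stress response, had 14.6, 20.4 and 25.7 CPM in deficient cells and 15.5, 15.9 and 13.6 CPM in controls, and the groups overlapped (log2 0.37, SE 0.152). Cebpb was counted as higher but missed the threshold in 15 of 23 alternatives, among them leaving out any control library or any deficient library other than 5. Atf5, whose messenger RNA is under the same kind of translational control as that of Atf4, read 10.6 to 20.8 CPM in deficient cells and 7.89 to 11.0 CPM in controls, with overlap.

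The stress effectors, which act downstream of ATF4, held the largest median of the 5 roles at 1.18 on the log2 scale, with 4 of 6 higher and 1 lower. Trib3 encodes a pseudokinase that restrains ATF4. It had 170, 210 and 220 CPM in deficient cells, against 64.0, 68.6 and 72.0 CPM in controls (log2 1.44, SE 0.0912). Sesn2 encodes the leucine sensor Sestrin 2, which holds back mTORC1. Its level was 39.7, 46.9 and 51.2 CPM in deficient cells, against 18.8, 20.8 and 18.7 CPM in controls (log2 1.16, SE 0.0983). In these genes all 7 deficient libraries exceeded every control.

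Vldlr, a lipoprotein receptor gene, had 66.8, 70.5 and 77.3 CPM in deficient cells and 11.4, 16.5 and 20.4 CPM in controls (log2 2.08, SE 0.112). Stc2, which encodes the secreted glycoprotein stanniocalcin 2, had 91.3, 137 and 156 CPM in deficient cells and 49.5, 49.9 and 53.1 CPM in controls (log2 1.20, SE 0.179). Deficient libraries 5 to 7 were again the lowest of the 7 for Stc2, at 91.3, 98.0 and 107 CPM. Chac1, whose product degrades glutathione, differed little: 29.5, 34.6 and 39.2 CPM in deficient cells and 28.3, 26.3 and 27.2 CPM in controls (log2 0.22, SE 0.12), without overlap but short of the threshold. Ppp1r15a went the other way. It encodes GADD34, which directs the dephosphorylation of eIF2, and read 52.7, 56.9 and 59.5 CPM in deficient cells, against 61.5, 69.7 and 65.8 CPM in controls (log2 -0.30, SE 0.0656).

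**Figure D3:**
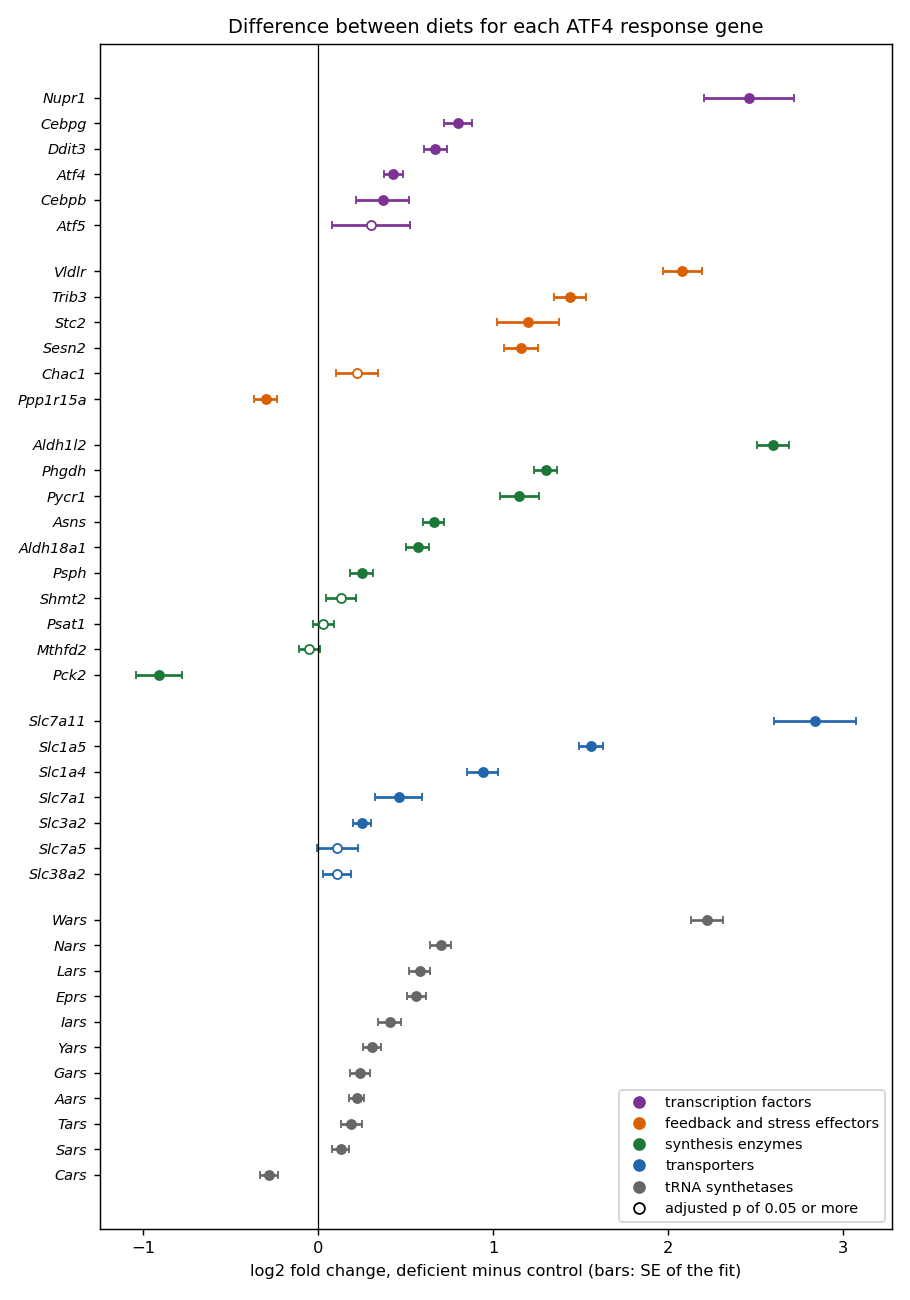
Log2 fold change of each member (deficient minus control) with the SE of the edgeR fit, by role; open points did not pass the adjusted p. The points run from -0.91 (Pck2) to 2.84 (Slc7a11).

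Among the 10 synthesis enzymes, 6 were higher and 1 lower, with a median of 0.41. Asns makes asparagine and is the textbook ATF4 target. It stood at 582, 605 and 627 CPM in deficient cells, against 368, 326 and 391 CPM in controls (log2 0.66, SE 0.0596), without overlap. The 3 enzymes of serine synthesis differed unequally. Phgdh, which starts the pathway, had 394, 434 and 459 CPM in deficient cells and 165, 155 and 169 CPM in controls (log2 1.30, SE 0.0673). All 7 deficient libraries lay above the controls, but 47.8% of its 50-base stretches also occur in other genes, chiefly the pseudogene Gm7901 (3.13 to 3.98 CPM in deficient cells, 4.17 to 4.83 CPM in controls), so its level is uncertain. Psat1, the next step, had 441 to 512 CPM in deficient cells and 417 to 457 CPM in controls (log2 0.03), and Psph, the last, had 124 to 146 CPM in deficient cells and 98.0 to 110 CPM in controls (log2 0.25).

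The mitochondrial folate enzymes also split. Aldh1l2, which oxidises formyl-tetrahydrofolate (ENSMUSG00000020256, chromosome 10, 83487450 to 83534140), had 87.5, 109 and 118 CPM in deficient cells, against 15.3, 16.4 and 18.7 CPM in controls (log2 2.60, SE 0.0923). It was 6.39 times as high on mean CPM, and deficient libraries 5 to 7, at 115 to 118 CPM, were above the other 4. Mthfd2, in the same compartment, had 402 to 453 CPM in deficient cells and 384 to 445 CPM in controls, and its log2 fold change of -0.05 (SE 0.0614) turned to 0.04 with scaling by total counts, 0.06 without the count filter and 0.02 within batch 1. Shmt2, which moves a carbon unit from serine to folate, had 131 to 175 CPM in deficient cells and 124 to 128 CPM in controls (log2 0.13).

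Transcripts of both proline synthesis enzymes in the list were higher. Pycr1, the reductase, had 27.4, 34.2 and 38.1 CPM in deficient cells and 12.1, 13.6 and 18.7 CPM in controls (log2 1.15, SE 0.112). Aldh18a1, the synthase before it, had 215 to 250 CPM in deficient cells and 138 to 157 CPM in controls (log2 0.57). Pck2, the mitochondrial enzyme that makes phosphoenolpyruvate, was lower, at 40.2, 44.4 and 63.3 CPM in deficient cells against 82.9, 87.1 and 84.3 CPM in controls (log2 -0.91, SE 0.131). Its promoter holds the motif shown above, as do those of Asns and Pycr1.

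Of the 7 amino acid transporters, 5 were higher and 0 lower, with a median of 0.46. Slc7a11, the light chain of the exchanger that imports cystine for glutamate (ENSMUSG00000027737, chromosome 3, 49892526 to 50443614), had 20.9, 26.9 and 35.5 CPM in deficient cells, against 2.41, 3.85 and 4.49 CPM in controls. It had the largest log2 fold change of the 40 members, at 2.84 (SE 0.235), without overlap. Slc3a2 encodes the heavy chain that Slc7a11 and Slc7a5 products both need. It had 342, 369 and 382 CPM in deficient cells and 286, 279 and 290 CPM in controls (log2 0.25, SE 0.0525). Slc7a5, the light chain that imports leucine and other large neutral amino acids, had 74.6, 92.4 and 114 CPM in deficient cells and 73.3, 88.2 and 78.1 CPM in controls (log2 0.11, SE 0.117), and its groups overlapped.

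Per kilobase of exon, mean levels were 102 CPM for Slc3a2, 24.6 CPM for Slc7a5 and 1.98 CPM for Slc7a11 in deficient cells. In controls these levels per kilobase were 80.7 CPM for Slc3a2, 21.5 CPM for Slc7a5 and 0.257 CPM for Slc7a11, so the order of the 3 genes was the same in both groups. Slc1a5, which carries glutamine and other neutral amino acids, had 345, 361 and 393 CPM in deficient cells, against 104, 123 and 123 CPM in controls (log2 1.56, SE 0.0674). Slc1a4, its relative for alanine, serine and cysteine, had 51.8, 59.2 and 67.9 CPM in deficient cells, against 31.9, 28.7 and 26.2 CPM in controls (log2 0.94, SE 0.0878). The 2 SLC1 genes showed no overlap. Slc7a1, for arginine and lysine, had 69.7, 89.6 and 109 CPM in deficient cells and 61.9, 61.1 and 59.9 CPM in controls (log2 0.46, SE 0.134), and it missed the threshold without control library 3 at 0.45. Slc38a2, for small neutral amino acids, had 164 to 214 CPM in deficient cells and 158 to 172 CPM in controls (log2 0.11).

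Of the 11 tRNA synthetases, which charge transfer RNA with its amino acid, 10 were higher and 1 lower, with a median of 0.31. Wars, the tryptophan enzyme, stood far from the others. It had 118, 142 and 147 CPM in deficient cells, against 25.5, 31.1 and 26.0 CPM in controls (log2 2.22, SE 0.0924), with 142 to 147 CPM in deficient libraries 5 to 7 and 118 to 142 CPM in the other 4. Nars, for asparagine, had 595, 624 and 698 CPM in deficient cells and 367, 362 and 385 CPM in controls (log2 0.70, SE 0.0587). Lars, for leucine, had 439, 462 and 517 CPM in deficient cells and 284, 287 and 316 CPM in controls (log2 0.58, SE 0.0586). None of these groups overlapped.

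Eprs, which charges glutamate and proline, had 1224, 1328 and 1442 CPM in deficient cells and 873, 796 and 914 CPM in controls (log2 0.56, SE 0.0547). Iars, for isoleucine, had 299, 324 and 361 CPM in deficient cells and 240, 221 and 234 CPM in controls (log2 0.41, SE 0.0667). The other 5 that were higher had log2 fold changes of 0.13 to 0.31. Yars, for tyrosine, had 235 to 263 CPM in deficient cells and 186 to 203 CPM in controls (log2 0.31), and Gars, for glycine, had 548 to 665 CPM in deficient cells and 478 to 518 CPM in controls (log2 0.24). Aars, for alanine, had 637 to 694 CPM in deficient cells and 521 to 562 CPM in controls (log2 0.22). Tars, for threonine, had 264 to 306 CPM in deficient cells and 228 to 245 CPM in controls (log2 0.19), and Sars, for serine, had 661 to 708 CPM in deficient cells and at most 611 CPM in controls (log2 0.13). All 7 deficient libraries of these 5 genes lay above all controls, but Sars missed the threshold without control library 2 or 3, deficient library 2, or deficient libraries 5 to 7, and within each batch. For Tars this was so within batch 2 or when control library 2 was left out. Cars, for cysteine, was lower, at 184 to 213 CPM in deficient cells and 230 to 241 CPM in controls (log2 -0.28, SE 0.0528).

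**Figure D4:**
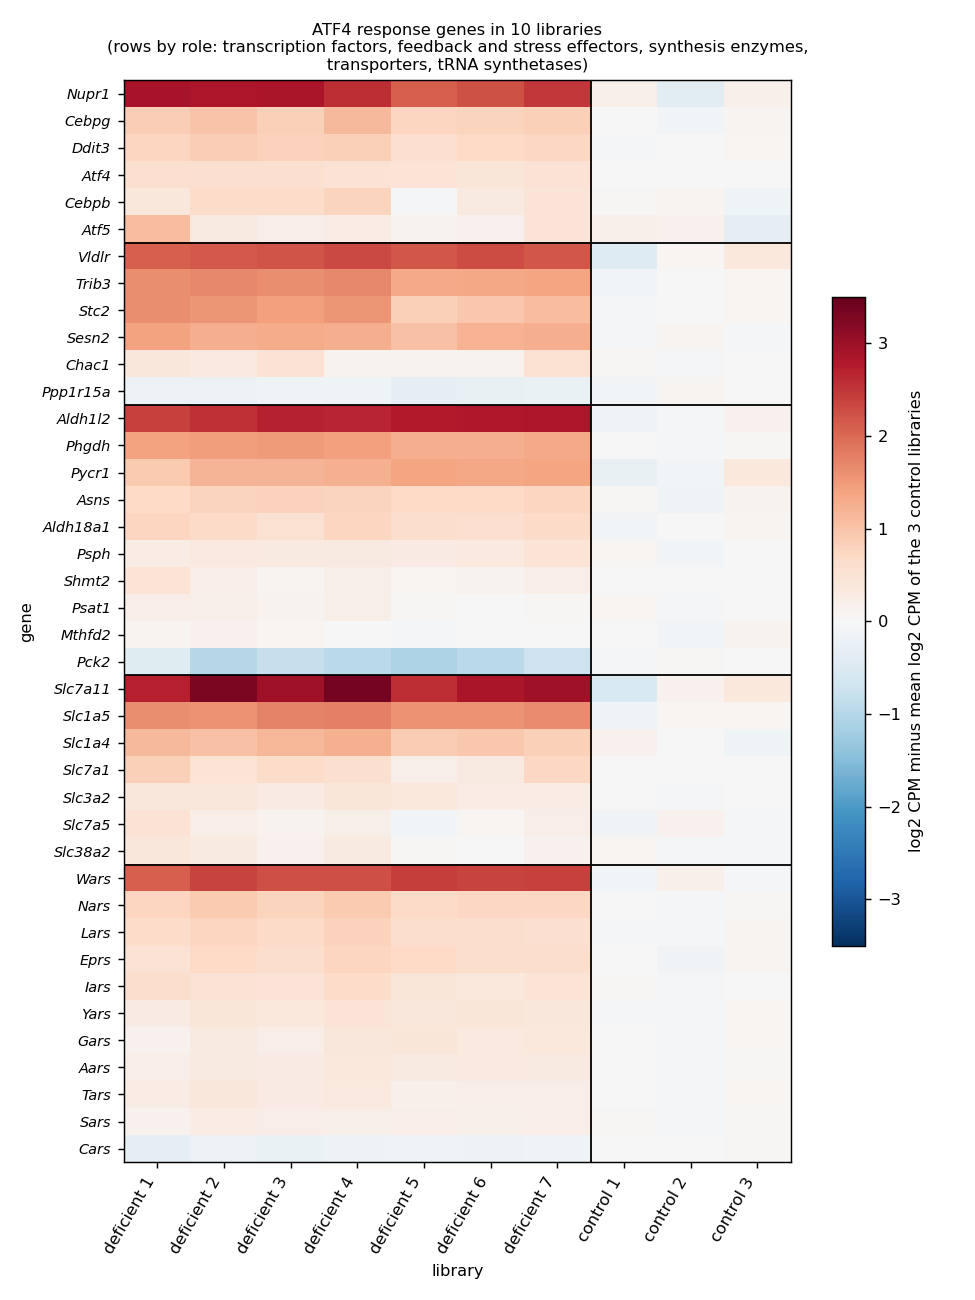
Log2 CPM of each member in each library minus its mean over the 3 control libraries, with deficient libraries 1 to 7 left of controls 1 to 3 and rows by role. Nupr1, Trib3 and Stc2 are paler in deficient libraries 5 to 7 than in 1 to 4, and Aldh1l2 is darker there.

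The members also varied among the deficient libraries. For 14 of 40 members, libraries 5 to 7 all lay below libraries 1 to 4, and for 3 they lay above; over all genes tested the shares were 13.4% and 14.3%. The 14 were Ddit3, Cebpg, Nupr1, Trib3, Ppp1r15a, Stc2, Phgdh, Psat1, Mthfd2, Slc1a4, Slc38a2, Nars, Tars and Lars, and the 3 were Aldh1l2, Pycr1 and Wars. This split was noticed in the data and was not tested. Libraries 6 and 7 are the deficient libraries of batch 2 and library 5 is of batch 1, so the split largely coincides with batch and cannot be told apart from it for libraries 6 and 7. Libraries 5 to 7 also had the higher cytotoxic marker sums (1491 to 1958 against 687 to 1040 CPM in libraries 1 to 4). The same held for the B cell marker sums (295 to 332 against 56.3 to 84.2 CPM). Whether the split is tied to these was not tested. Within the deficient group the coefficient of variation ran from 2.31% for Sars to 27.4% for Atf5.

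Batch was a measure that the choice of members did not use. No member passed between batch 2 and batch 1 (0 of 40 at an adjusted p below 0.05 with edgeR, DESeq2 or limma-voom; 3 of 40 at an unadjusted p below 0.05 with each tool). Over all genes tested, 0 passed and 7.58% had an unadjusted edgeR p below 0.05. Log2 differences of members between batches ran from -0.26 for Stc2 to 0.27 for Pycr1. The diet difference itself was not shown to differ between the batches in any member, with 0 of 40 at an adjusted p below 0.05 in each of the 3 tools and 1, 0 and 0 at an unadjusted p below 0.05 with edgeR, DESeq2 and limma-voom (all genes: 0 adjusted, 4.16% unadjusted with edgeR). Batch 2 has a single control, and 3 against 7 libraries limits what this can show. Without deficient library 5, Stc2 passed both tests.

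A second question is what the neighbouring genes of the pathway did. In 9 lists of 140 genes that are no members, 133 were tested, of which 56 rose and 32 fell, with a median log2 fold change of 0.13. The background shares of 29.4% higher and 28.6% lower apply here too. All p-values that follow are edgeR's, adjusted over all genes tested. These lists too were chosen with earlier results of these data known, and most genes named are those of smallest adjusted p. The p-values therefore describe these genes and are no independent evidence.

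**Figure D5:**
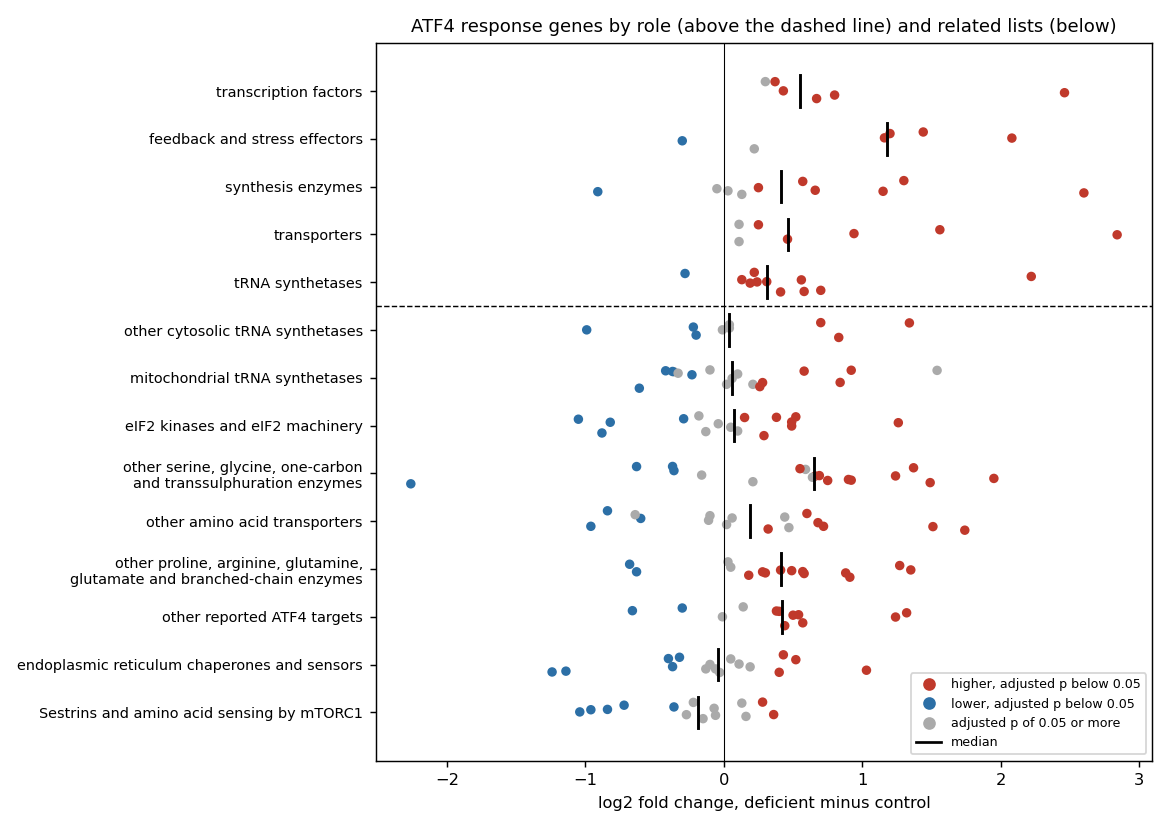
Log2 fold change (deficient minus control) of each tested gene, by role for the members (above the dashed line) and by list for related genes (below), with the median as a bar and calls in colour. The medians of the members' roles lie between 0.31 and 1.18, those of the related lists between -0.18 and 0.65.

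Of the 9 other cytosolic synthetases, 3 rose and 3 fell (median 0.04). Rars, for arginine, rose to 267 ± 20.5 CPM in deficient cells, against 99.6 ± 6.54 CPM in controls (SD, n = 7 and 3; log2 1.34, adjusted p = 1.48e-09, edgeR). Farsb, a subunit of the phenylalanine enzyme, rose by 0.83 (adjusted p = 3e-08). Qars, for glutamine, fell to 165 ± 3.53 CPM in deficient cells, against 309 ± 14.3 CPM in controls (log2 -0.99, adjusted p = 7.51e-10). Kars, for lysine, fell by 0.20 (adjusted p = 0.00924) but did not pass without control library 1 (-0.16), in batch 2 alone (-0.11), when scaled by total counts (-0.12) or with no count filter (-0.09). Of the 17 mitochondrial synthetases, 5 rose, among them Mars2 at 0.92 and Yars2 at 0.84, and 4 fell, among them Sars2 at -0.61 and Fars2 at -0.37 (median 0.06). Fars2 did not pass in batch 2 alone (-0.22) or when control library 2 was left out (-0.27).

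Upstream of ATF4, 7 of 16 genes of the eIF2 kinases and eIF2 machinery rose and 4 fell (median 0.07). Eif2ak2, the kinase PKR that senses double-stranded RNA, rose to 41.0 ± 6.80 CPM in deficient cells, against 16.4 ± 2.72 CPM in controls (log2 1.26, adjusted p = 1.79e-06), and Eif2b2, a subunit of the exchange factor for eIF2, rose by 0.49 (adjusted p = 1.89e-05). Gcn1l1, the partner that GCN2 needs on the ribosome, fell to 65.2 ± 6.45 CPM in deficient cells, against 113 ± 8.47 CPM in controls (log2 -0.88, adjusted p = 7.44e-07, edgeR). Eif2a, which despite its name encodes a factor separate from the subunits of eIF2, fell by 0.82 (adjusted p = 1.4e-08, edgeR). Named after their values were seen, Eif2ak3, the kinase PERK of the endoplasmic reticulum, fell by 1.05 (adjusted p = 1.19e-06), whereas Eif2ak4, which encodes GCN2, had a log2 fold change of -0.18 (adjusted p = 0.0758).

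Among other enzymes of serine, glycine, folate and transsulphuration, 10 of 18 tested rose and 4 fell, with the largest median of the 9 lists, 0.65. Cth, which makes cysteine from cystathionine, rose to 237, 265 and 287 CPM (lowest, median and highest) in deficient cells, against 71.5, 58.7 and 63.4 CPM in controls (log2 1.95, adjusted p = 5.54e-11), and Mat2a, which makes S-adenosylmethionine, rose by 1.24 (adjusted p = 2e-08). Gcat, of threonine breakdown, fell to 9.92 ± 2.21 CPM in deficient cells, against 44.4 ± 2.14 CPM in controls (log2 -2.26, adjusted p = 2.2e-08), and the methionine synthase gene Mtr fell by 0.36 (adjusted p = 0.0017). Of other enzymes of proline, arginine, glutamine, glutamate and branched-chain amino acids, 11 of 15 rose and 2 fell (median 0.41). The aminotransferase genes Got1 and Bcat2 rose by 0.91 and 0.88, and Glud1 and Asl fell by 0.63 and 0.68 (adjusted p of these 4 at most 1.23e-05).

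Of 16 tested genes in the list of other amino acid transporters, 6 rose and 3 fell (median 0.19). The glycine transporter gene Slc6a9 rose by 1.74 (adjusted p = 1.4e-07). Slc43a3, which belongs to an amino acid transporter family but is known as a carrier of purine nucleobases, rose by 1.51 (adjusted p = 4.41e-07). Slc38a10 fell by 0.60 (adjusted p = 9.45e-06) and Slc43a2, a carrier of large neutral amino acids, by 0.84 (adjusted p = 0.000166). Of 12 other reported ATF4 targets tested, 8 rose and 2 fell (median 0.42), among them the autophagy receptor gene Sqstm1 at 1.32 (adjusted p = 1.03e-10) and the oxidoreductase gene Ero1l at 1.24 (adjusted p = 4.85e-09). Jdp2 and Ndrg1 fell by 0.66 and 0.30 (adjusted p = 0.00157 and 0.0136); Ndrg1 did not pass in batch 2 alone (-0.20), when control library 1 was left out (-0.17), when scaled by total counts (-0.21) or with no count filter (-0.19).

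Endoplasmic reticulum chaperones and sensors, which mark another route to ATF4, went both ways, with 4 of 16 higher and 5 lower (median -0.05). Ern1, the sensor IRE1, rose by 1.03 (adjusted p = 6.82e-06) and the chaperone gene Hspa5 by 0.40 (adjusted p = 1.1e-05). Xbp1, the factor IRE1 activates, fell to 192 ± 14.1 CPM in deficient cells, against 401 ± 19.5 CPM in controls (log2 -1.14, adjusted p = 3.98e-10), and Pdia6 fell by 1.24 (adjusted p = 3.15e-10). Of 14 Sestrin and mTORC1 sensing genes, 2 rose and 5 fell (median -0.18). Sesn1 fell by 0.72 (adjusted p = 1.27e-06), opposite in sign to the member Sesn2, and Fnip1 fell by 0.84 (adjusted p = 4.26e-08). Mios and Rragc rose by 0.36 and 0.28 (adjusted p = 0.00617 and 0.0105), and neither passed in batch 2 alone (0.24 and 0.16) or when control library 2 was left out (0.24 and 0.16).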

How the data were processed

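For 10 total RNA libraries the authors deposited a table of unnormalised counts by Ensembl gene ID. The TruSeq kit keeps strand and removes globin transcripts, per the labels' protocols. The submitters' processing notes name STAR 2.7.10a, HTSeq 0.13.5 and the build GRCm38. The strand setting and the annotation release were not given in the sources used here. Where a gene overlaps another on the opposite strand (Aldh1l2, Psph, Cebpb, Ddit3 and others), reads of the 2 genes may be mixed. Reads shared with another gene may be lost, as in Phgdh and in the 13.5% of Aars that Exosc6 shares.

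Gene IDs were matched to GENCODE M21 (49412 of 49671). Tests used edgeR 4.0.16 under R 4.3.3 (filterByExpr with a minimum count of 10, TMM, robust glmQLFit, glmQLFTest) with terms for diet and batch over all 10 libraries; p-values were Benjamini-Hochberg adjusted over 13699 genes, with a threshold of 0.05. Standard errors were derived from the test of the fit, as the absolute log2 fold change divided by the square root of the F statistic. Levels are CPM on library totals. Libraries of a group differed by more than sampling noise in all 24 pairs (chi-square per gene 2.82 to 49.9). The test was checked on simulated counts. Alternatives were other scalings, filters, DESeq2 1.42.0, limma-voom (limma 3.58.1), no batch term, single batches and libraries left out.

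The members, the lists of related genes and markers, and the alternatives were chosen with earlier results of these data known. Values are given for each control library and as the lowest, median and highest deficient library for 8 preset members (Atf4, Ddit3, Asns, Chac1, Trib3, Sesn2, Slc7a5, Slc3a2) and, in each role, the 5 of largest absolute log2 fold change whose mean reached 1 CPM; others are given by range. From each related list, the 2 genes of smallest adjusted p in each direction are named. Figures were drawn with matplotlib 3.10.9.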

Additional observations from a re-analysis of the deposited data

Results flagged for a closer look

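In 3 of the 40 members a single library lay far from the other 6 of the deficient group, by a gap larger than Dixon's 95% limit for 7 samples. Chance flags about 1 in 20 groups. Atf5 read 20.8 CPM in deficient library 1, with 10.6 to 13.3 CPM in the other 6. Shmt2 read 175 CPM in deficient library 1, with 131 to 149 CPM in the other 6. Psph read 146 CPM in deficient library 7, with 124 to 133 CPM in the other 6.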

How the results depend on the processing

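Of the 33 members past the threshold between the diets, 25 passed in all 23 alternatives and none of the 33 changed sign in them. The exceptions were Cebpb (missed in 15), Sars (6), Tars (2), and Psph, Slc3a2, Slc7a1, Ppp1r15a and Cars (1 each). The alternatives refit the contrast that was in view when the list was made, on the same libraries or fewer. They describe dependence on the processing and are no independent support. Without the low count filter the median log2 fold change was 0.19 over 35136 genes, against 0.02 over the 13699 that pass it. These medians cover different genes, and the TMM scaling was also computed anew on the unfiltered genes. The same 40 members were in both fits. Atf4 read 0.54 without the filter, against 0.43, and the members' median was 0.55, against 0.45. In that fit 35 members were higher and 1, Pck2, lower. With scaling by total counts, 33 members were higher and 3 lower. Of the members short of the threshold, 5 passed in an alternative. Chac1, Shmt2 and Slc38a2 did so with scaling by total counts and without the count filter, and Atf5 and Slc7a5 only without the filter. With an adjusted p below 0.01 in the main fit, 26 members were higher. Leaving out each library in turn, 0 to 1 member passed between batches and 0 to 1 for the difference of the diet effect between batches; in each case the member was Stc2, without deficient library 5. The test of that difference could not be fitted without control library 3 or without deficient libraries 5 to 7. No paired analysis was possible because the labels give no replicate numbers. The library numbers used here follow the order of the deposited samples. The shallower controls limit low genes such as Slc7a11. Values of members carry counting and replicate error of 3 controls only.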

Other observations

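The cationic amino acid transporter gene Slc7a2, a relative of Slc7a1, was listed with the related genes but named after its values were seen. Deficient libraries 1 to 4 gave 2.55, 5.08, 4.84 and 3.67 CPM and libraries 5 to 7 at least 9.62 CPM, against 11.7, 12.3 and 13.6 CPM in the controls. Libraries 5 to 7 were above libraries 1 to 4, and the deficient and control libraries overlapped (log2 -0.64, SE 0.612, adjusted p = 0.407, edgeR). Lars2, the mitochondrial leucine synthetase gene, read 1050 CPM in deficient library 1 and 25.4 to 154 CPM in the other 6 deficient libraries, against 48.6 to 78.6 CPM in controls.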
